A study of Mus musculus with 4 samples.

Results

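The fast fibre contractile genes described here are 10 genes of the type II (fast-twitch) muscle fibre, picked by gene name: *Myh1*, *Myh2*, *Myh4*, *Mylpf*, *Tnnt3*, *Tnni2*, *Tnnc2*, *Atp2a1*, *Actn3*, and *Pvalb*. They are 10 of the 22252 gene names in the gastrocnemius data, and all 10 were among the 14206 genes that had a count above 0 in every library, over which changes were compared. The muscle came from male C57BL/6J mice aged 7 weeks. All mice carried floxed alleles of the glucocorticoid receptor (GR) gene, *Nr3c1*, on both chromosomes. The 4 groups were lean GRf/f (no Cre, Lep+/+), lean GRmKO (1 copy of Cre, Lep+/+), ob/ob GRf/f (no Cre, Lepob/ob), and ob/ob GRmKO (1 copy of Cre, Lepob/ob). Lepob/ob mice lack leptin and become obese. The Cre is driven by the skeletal muscle actin promoter, so deletion is limited to myofibres and starts during development, and other cells of the muscle keep the receptor. Each group is a pool of RNA from 3 mice sequenced as 1 library. No difference could therefore be held against the spread between mice, and no *P* value is given.

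A fast fibre contracts when calcium released from the sarcoplasmic reticulum binds troponin on the thin filament, which lets myosin heads pull on actin. The speed of the fibre depends on its myosin heavy chain: MyHC IIa (*Myh2*), IIx (*Myh1*), and IIb (*Myh4*), in order of increasing speed. The gastrocnemius of the mouse is rich in type IIb fibres, with type I (slow) fibres, which use *Myh7*, as a minority.

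The comparisons ask whether expression of the fast genes differed with obesity or with loss of muscle GR. In *ob/ob* muscle, the 3 myosin heavy chains, *Atp2a1*, and *Actn3* were higher than in lean muscle in both genotypes, and the regulatory light chain, the 3 troponin subunits, and *Pvalb* were lower. For the light chain and the troponins in GRmKO mice, the direction depends on how the libraries are scaled. *Myh2* differed most, at 2.12-fold the lean level in GRf/f and 3.39-fold in GRmKO mice. Between GRmKO and GRf/f mice, 0 of the 10 genes differed by 1.5-fold in either background, where 9.44% of all genes tested were higher and 7.78% lower by that much in lean mice, and 8.59% and 12.2% in *ob/ob* mice.

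The 4 libraries held from 19897754 to 20959781 expected counts. Expression is given as CPM, the counts of a gene scaled to the same library total, over the 14206 genes. *Nr3c1* was at 125 CPM in lean GRf/f, 67.1 in lean GRmKO, 102 in ob/ob GRf/f, and 39.2 in ob/ob GRmKO muscle, which is lower in each GRmKO library than in its GRf/f counterpart. All 7 markers of skeletal muscle were measured, and their summed level lay between 59355 and 66382 CPM. The 10 fast fibre genes took 9.53% of the counts in lean GRf/f, 9.18% in lean GRmKO, 10.3% in ob/ob GRf/f, and 11.4% in ob/ob GRmKO muscle. Of the 10 genes, 8 were among the 50 most abundant genes in every library. By mean CPM, *Myh4* ranked 3 and *Atp2a1* ranked 4 among all genes, and the lowest of the 10, *Myh2*, ranked 79. Ranges in parentheses after a value are Wilson intervals at 95%, which cover only counting error. Where both *ob/ob* or both GRmKO libraries lay above or below both others, the share of all genes in that order was not counted.

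The 3 myosin genes lie one after another on the plus strand of chromosome 11 of GRCm38. *Myh2* spans 67171027 to 67197517, *Myh1* 67200052 to 67224575, and *Myh4* 67238029 to 67260446. The gaps between them are 2534 and 13453 bp. The transcripts listed for *Myh1* and *Myh2* have 40 exons and that for *Myh4* has 39. *Myh1* overlaps the antisense RNA gene *Myhas*, and *Myh2* overlaps the antisense RNA gene *9430073C21Rik*. *Tnni2* and *Tnnt3* are also neighbours, at 142441808 to 142444410 and 142498836 to 142516009 on the plus strand of chromosome 7. The same chromosome holds *Mylpf* (127208890 to 127214298, plus strand) and *Atp2a1* (126445858 to 126463108, minus strand), which overlaps the protein-coding gene *Rabep2* on the other strand. *Tnnc2* lies on chromosome 2 (164777161 to 164779967, minus strand) and overlaps the protein-coding gene *Ube2c* on the other strand. *Actn3* lies on chromosome 19 (4861216 to 4877909) and *Pvalb* on chromosome 15 (78191114 to 78206400), both on the minus strand.

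The stretches upstream of the 3 myosin genes are shown because these genes sit in 1 cluster, are the genes past 1.5-fold in at least 1 comparison of obesity, and share a block of sequence before the start of transcription. They were taken from RefSeq (GRCm38.p6), which matched 7 of the 10 genes and no promoter of *Tnnt3*, *Tnni2*, or *Actn3*. The sequences are those of the plus strand at chr11:67170777-67171026 for *Myh2*, chr11:67199852-67200051 for *Myh1*, and chr11:67237562-67237811 for *Myh4*, and they stop before the first base of the gene in GENCODE. Capitals mark the longest run of bases found in all 3 upstream stretches.
Myh2: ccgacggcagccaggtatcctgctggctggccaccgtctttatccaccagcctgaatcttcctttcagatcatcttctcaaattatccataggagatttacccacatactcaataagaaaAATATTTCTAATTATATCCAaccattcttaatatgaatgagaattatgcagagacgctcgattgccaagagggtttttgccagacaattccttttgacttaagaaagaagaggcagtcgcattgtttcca
Myh1: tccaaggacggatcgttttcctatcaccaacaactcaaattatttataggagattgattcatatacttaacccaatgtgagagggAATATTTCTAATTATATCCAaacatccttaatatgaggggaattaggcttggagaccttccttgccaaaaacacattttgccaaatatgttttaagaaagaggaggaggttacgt
Myh4: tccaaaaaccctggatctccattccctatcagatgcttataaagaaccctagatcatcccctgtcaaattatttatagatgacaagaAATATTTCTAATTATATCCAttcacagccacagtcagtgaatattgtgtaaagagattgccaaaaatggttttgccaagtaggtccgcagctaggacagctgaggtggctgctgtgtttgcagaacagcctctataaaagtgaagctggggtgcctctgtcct
The block is 20 bases long and starts 130 bases before the RefSeq start of *Myh2*, 165 bases before that of *Myh1*, and 163 bases before that of *Myh4*. On either strand, it was found in 3 of 32851 RefSeq promoter windows of 300 bases, or 0.00913%, and these 3 are the myosin promoters shown. Because the block was defined from these 3 promoters, these matches were given in advance. The letters TATAAA were found on either strand in 13.6% of promoter windows and in the windows of all 3 myosin genes. With 6 bases against 20, this percentage is not comparable with that of the block. The windows also run past the RefSeq start, and the only *Myh2* match lies 10 bases after it, outside the stretch shown. The MEF2 consensus, a binding motif of muscle transcription factors, was found in 3.19% of promoters, in those of *Myh1* and *Myh4*, and in 1 of the 2 promoter windows of *Pvalb*. The E-box CANNTG, bound by myogenic factors such as MyoD, was found in 72.3% of promoters and in those of *Myh4*, *Mylpf*, *Tnnc2*, and *Atp2a1* and in 1 window of *Pvalb*, but not in those of *Myh1* and *Myh2*. AGAACA, a core part of the glucocorticoid response element, was found in 19.0% of promoters and in those of *Myh4* and *Mylpf*. It was also found in 1 window of *Pvalb*, 39 bases after the RefSeq start. These are matches of letters only.

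*Myh4*, which encodes the fastest heavy chain, was the most abundant of the 3 myosins in every library. Its level was 23367 CPM in lean GRf/f (23302–23432), 20902 in lean GRmKO (20839–20965), 29046 in ob/ob GRf/f (28974–29118), and 37921 in ob/ob GRmKO muscle (37839–38003). Both *ob/ob* libraries were above both lean ones, and the *ob/ob* GRmKO library was the highest. *Myh4* was 1.24-fold higher in *ob/ob* than in lean GRf/f mice (log2 change, 0.31) and 1.81-fold higher in GRmKO mice (0.86). Loss of muscle GR went with a log2 change of -0.16 in lean and of 0.38 in *ob/ob* mice.

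*Myh1*, which encodes the IIx heavy chain, was at 907 CPM in lean GRf/f (895–921), 827 in lean GRmKO (815–840), 1574 in ob/ob GRf/f (1557–1591), and 1486 in ob/ob GRmKO muscle (1469–1502). It was 1.73-fold higher in *ob/ob* than in lean GRf/f mice and 1.80-fold higher in GRmKO mice, so that its 2 log2 changes, 0.79 and 0.84, lay 0.05 apart. The *Myh1* changes with GR loss were -0.13 in lean and -0.08 in *ob/ob* mice.

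*Myh2*, which encodes the IIa heavy chain of fast oxidative fibres, was at 664 CPM in lean GRf/f (653–675), 509 in lean GRmKO (499–519), 1405 in ob/ob GRf/f (1389–1421), and 1724 in ob/ob GRmKO muscle (1706–1742). The *Myh2* log2 change with obesity was 1.08 in GRf/f and 1.76 in GRmKO mice. GR loss went with a lower *Myh2* level in lean (-0.38) and a higher one in *ob/ob* mice (0.30). Across the 4 libraries, the order of the *Myh2* levels was the same as that of *Myh4*, with the *ob/ob* GRmKO library at the top and the lean GRmKO library at the bottom.

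**Figure D1:**
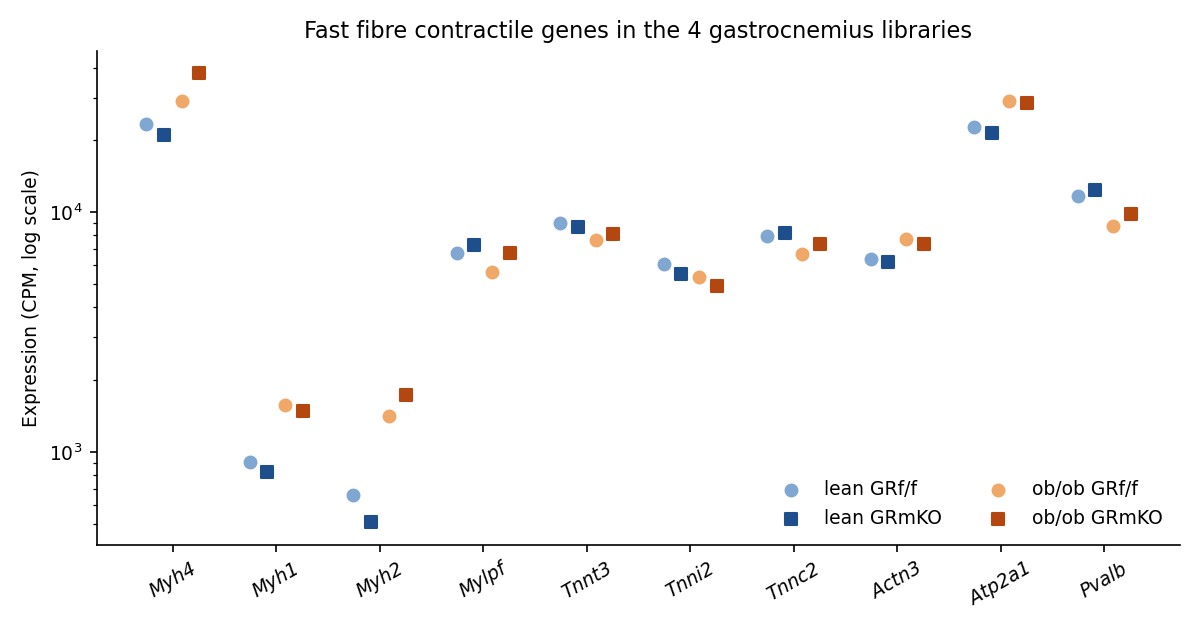
Expression of the 10 fast fibre genes (CPM, log axis) in each of the 4 libraries, 1 library of pooled RNA per group. Points are single libraries, and *Myh1*, *Myh2*, and *Myh4* are higher in both *ob/ob* libraries than in both lean ones, whereas *Pvalb* is lower.

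As a share of the counts of *Myh1*, *Myh2*, and *Myh4* together, *Myh4* made up 93.7% in lean GRf/f (93.6–93.8), 94.0% in lean GRmKO, 90.7% in ob/ob GRf/f, and 92.2% in ob/ob GRmKO muscle. The *Myh4* share was thus 3.00 percentage points lower in *ob/ob* than in lean GRf/f mice and 1.80 points lower in GRmKO mice, although its level was higher. The *Myh2* share was 2.66% in lean GRf/f, 2.29% in lean GRmKO, 4.39% in ob/ob GRf/f, and 4.19% in ob/ob GRmKO muscle, so that both *ob/ob* libraries were above both lean ones. The *Myh1* share was 3.64% in lean GRf/f, 3.72% in lean GRmKO, 4.91% in ob/ob GRf/f, and 3.61% in ob/ob GRmKO muscle. The ob/ob GRf/f library therefore stood above the other 3 in the *Myh1* share, and these 3 lay within 0.11 points of each other. The point differences with obesity were 1.27 for *Myh1* and 1.73 for *Myh2* in GRf/f mice, against -0.11 and 1.90 in GRmKO mice. The *Myh4* share was the higher of the pair in the GRmKO library of both backgrounds.

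**Figure D2:**
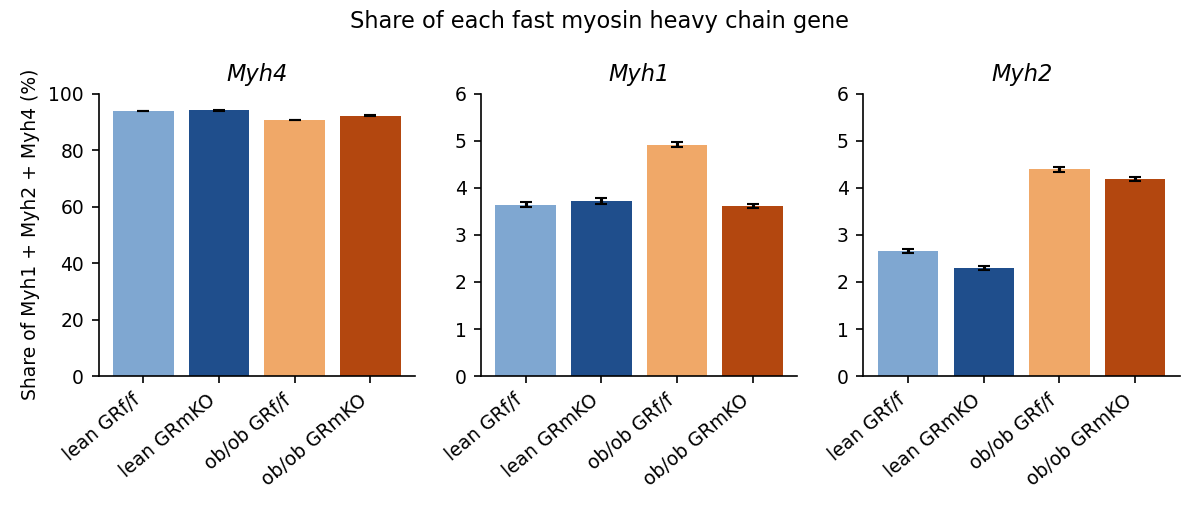
Shares (%) of *Myh4*, *Myh1*, and *Myh2* in their summed counts in each library. *Myh4* holds from 90.7% to 94.0% of the sum, and *Myh2* holds 4.39% and 4.19% in the *ob/ob* libraries against 2.66% and 2.29% in the lean ones.

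The 3 myosin transcripts are alike in sequence, so the split of reads among them depends on how the counting program assigned shared reads. Of the 31-base words in the listed transcript, 39.7% in *Myh1*, 38.5% in *Myh2*, and 30.4% in *Myh4* also occur in transcripts of other genes. For 100-base words, the shares were 9.73%, 9.17%, and 3.85%. These shares are no estimate of the error in the counts of those 3 genes, which was not measured. The other 7 genes shared at most 1.02% of their 31-base words with another gene.

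The other sarcomeric myosin heavy chains were low. *Myh7*, the slow heavy chain, was at 63.1, 84.8, 276, and 419 CPM in lean GRf/f, lean GRmKO, ob/ob GRf/f, and ob/ob GRmKO muscle, or from 0.252% to 1.01% of the 4 adult heavy chains. *Myh8*, the perinatal chain, was at 1.75, 2.71, 5.56, and 7.63 CPM in the same order. *Myh3*, the embryonic chain, was at 1.07, 3.89, 6.78, and 0 CPM, so 1 library held no counts of it. *Myh13* and *Myh15* were also at 0 in 2 libraries each. Transcripts of *Myh3*, *Myh8*, and *Myh13* share 31-base words with those of *Myh1*, *Myh2*, or *Myh4*. The part of shared reads in these low counts was not tested.

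*Mylpf*, the regulatory light chain of fast myosin, was at 6741 CPM in lean GRf/f (6706–6777), 7318 in lean GRmKO (7280–7355), 5619 in ob/ob GRf/f (5587–5651), and 6714 in ob/ob GRmKO muscle (6679–6749). The ob/ob GRf/f library was the lowest and the lean GRmKO library the highest. The *Mylpf* log2 change with obesity was -0.26 in GRf/f and -0.12 in GRmKO mice, opposite in sign to that of the heavy chains. GR loss went with a *Mylpf* change of 0.12 in lean and of 0.26 in *ob/ob* mice. The ratio of *Myh4* to *Mylpf* counts was 3.47 in lean GRf/f, 2.86 in lean GRmKO, 5.17 in ob/ob GRf/f, and 5.65 in ob/ob GRmKO muscle. This ratio is independent of library scaling, and both *ob/ob* libraries were above both lean ones. It is not independent of transcript length (6016 bp for *Myh4*, 766 bp for *Mylpf*), with which changes in obesity varied, as described below. Centred on genes of like length, the change was 0.18 for *Myh4* and 0.28 for *Mylpf* in GRf/f mice. In GRmKO mice, these values were 0.72 and 0.43.

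The troponin complex has a tropomyosin-binding (*Tnnt3*), an inhibitory (*Tnni2*), and a calcium-binding subunit (*Tnnc2*) in fast fibres. *Tnnt3* was at 9016 CPM in lean GRf/f, 8677 in lean GRmKO, 7658 in ob/ob GRf/f, and 8113 in ob/ob GRmKO muscle. *Tnni2* was at 6053, 5517, 5345, and 4925 CPM in the same order. *Tnnc2* was at 7961, 8205, 6689, and 7341 CPM. In CPM, both *ob/ob* libraries were below both lean ones for each subunit. Of all genes tested, 62.1% were lower with obesity in GRf/f and 67.2% in GRmKO mice. This order depends on the scaling. With TMM or DESeq2 scaling factors instead of CPM, all 3 subunits were higher in *ob/ob* than in lean GRmKO mice. The log2 changes with obesity were -0.24, -0.18, and -0.25 for *Tnnt3*, *Tnni2*, and *Tnnc2* in GRf/f mice, and -0.10, -0.16, and -0.16 in GRmKO mice. With GR loss they ranged from -0.13 to 0.13. The subunits stayed close to each other in ratio, with 1.43 to 1.65 *Tnnt3* counts per *Tnni2* count and 1.06 to 1.14 *Tnnt3* counts per *Tnnc2* count over the 4 libraries.

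*Actn3*, which encodes the α-actinin of the fast fibre Z-line, was at 6355 CPM in lean GRf/f (6321–6390), 6169 in lean GRmKO (6134–6203), 7734 in ob/ob GRf/f (7696–7771), and 7388 in ob/ob GRmKO muscle (7352–7425). Both *ob/ob* libraries were above both lean ones, with log2 changes of 0.28 in GRf/f and 0.26 in GRmKO mice. The *Actn3* changes with GR loss were -0.04 and -0.07.

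*Atp2a1* encodes SERCA1, the pump that returns calcium to the sarcoplasmic reticulum, and *Pvalb* encodes parvalbumin, a soluble protein that binds calcium during relaxation. *Atp2a1* was at 22623 CPM in lean GRf/f, 21300 in lean GRmKO, 29117 in ob/ob GRf/f, and 28619 in ob/ob GRmKO muscle. *Pvalb* was at 11638, 12387, 8779, and 9851 CPM in the same order. The directions of the 2 genes were opposite, with log2 changes in obesity of 0.36 and 0.43 for *Atp2a1* and of -0.41 and -0.33 for *Pvalb*. The ratio of *Atp2a1* to *Pvalb* counts was 1.94 in lean GRf/f, 1.72 in lean GRmKO, 3.32 in ob/ob GRf/f, and 2.91 in ob/ob GRmKO muscle. Per kilobase of transcript, *Pvalb* and *Tnnc2* had the highest levels of the 10 genes in every library, with 12678 CPM per kb of *Pvalb* and 11721 of *Tnnc2* in lean GRmKO muscle. *Myh4* ranged from 3474 to 6303 CPM per kb.

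Across all 10 genes, a change of at least 1.5-fold in either direction was used as a call, with no test behind it. In GRf/f mice, 2 of the 10 genes, *Myh1* and *Myh2*, were called higher with obesity, against 7.95% of all genes tested, and 0 were called lower, against 16.6% of all genes. In GRmKO mice, *Myh1*, *Myh2*, and *Myh4* were called higher with obesity, 3 of 10 against 7.79% of all genes, and 0 were called lower, against 24.0%. With GR loss, 0 of 10 were called in either direction in lean mice, where 9.44% of all genes were called higher and 7.78% lower. With GR loss in *ob/ob* mice, 0 of 10 were called, where 8.59% of all genes passed upward and 12.2% downward. At a 2-fold change, *Myh2* alone of the 10 was called, in both comparisons of obesity. Of all genes, 3.39% were then higher and 6.99% lower in GRf/f mice, and 3.41% and 10.8% in GRmKO mice. With GR loss, 0 of 10 genes passed 2-fold, against 4.13% higher and 3.56% lower of all genes in lean and 4.03% and 5.0% in *ob/ob* mice. The 2 obesity comparisons share no library with each other, but each shares libraries with the 2 comparisons of genotype.

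The median log2 change of the 10 genes with obesity was 0.05 in GRf/f and 0.08 in GRmKO mice, whereas that of all genes was -0.11 and -0.21. In both comparisons, 5 of the 10 genes lay above 0 and 5 below. Relative to the median gene, *Mylpf*, *Tnnt3*, *Tnni2*, and *Tnnc2* were still lower in GRf/f mice (from -0.15 to -0.06), but were higher in GRmKO mice (from 0.04 to 0.11), so the direction of these 4 genes in GRmKO mice depends on the scaling. *Pvalb* was lower than the median gene in both genotypes, at -0.29 and -0.12. With GR loss, the median of the 10 genes was -0.07 in lean mice, with 3 above and 7 below 0, and 0.11 in *ob/ob* mice, with 6 above and 4 below. The medians of all genes were 0.05 and -0.04. The difference between the 2 obesity changes, GRmKO minus GRf/f, was 0.68 for *Myh2* and 0.55 for *Myh4*, and between -0.02 and 0.14 for the other 8 genes. This difference could not be tested with 1 library per group.

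**Figure D3:**
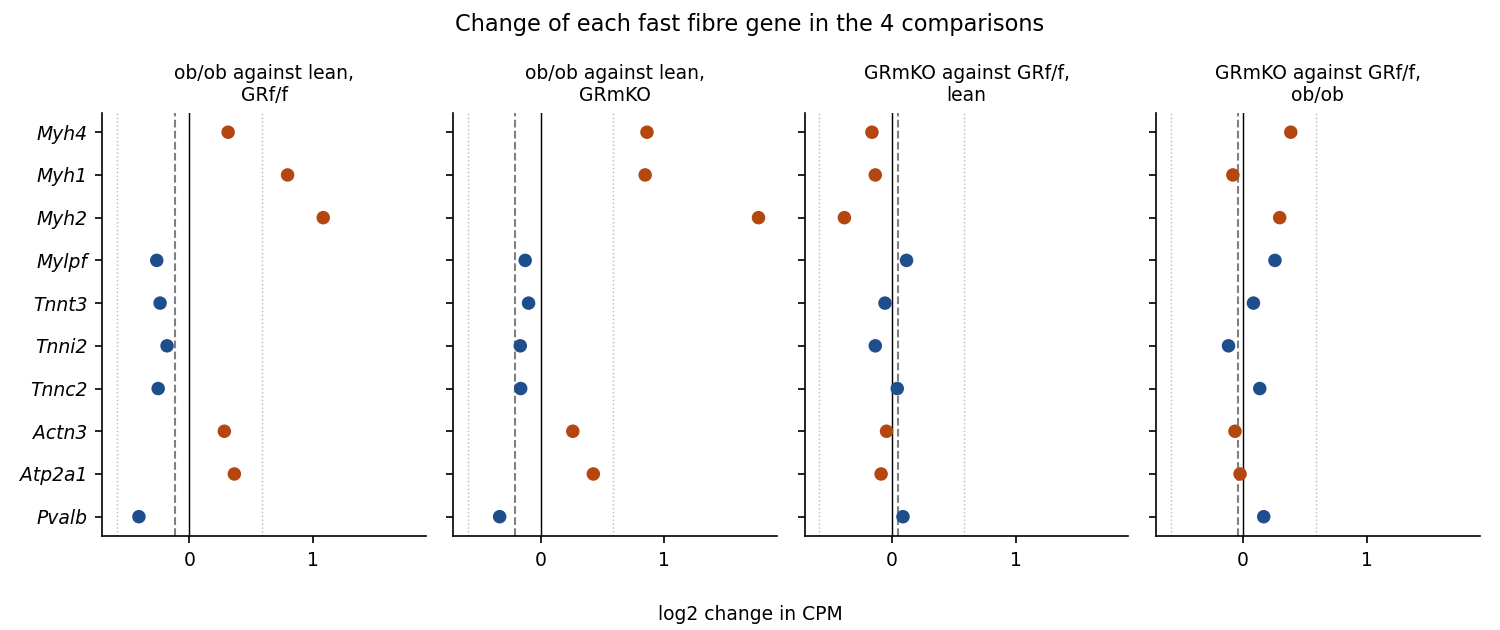
Log2 change in CPM of each fast fibre gene in the 4 comparisons, with orange for transcripts of at least 2000 bp and blue for shorter ones. The dashed line is the median of all genes tested and dotted lines mark a 1.5-fold change. All 5 orange points lie above 0 and all 5 blue points below 0 in both comparisons of obesity.

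The 5 genes that were higher with obesity are those with the longer transcripts, from 2887 bp (*Actn3*) to 6083 bp (*Myh2*), and the 5 that were lower have transcripts from 700 bp (*Tnnc2*) to 1079 bp (*Tnnt3*). The median change with obesity was 0.36 for the long and -0.25 for the short ones in GRf/f mice, and 0.84 and -0.16 in GRmKO mice. The same relation with length was seen in genes outside the list, a comparison added after the data were seen. Among 2392 other genes at 50 CPM or more, the 399 shortest (up to 1473 bp) had a median change with obesity of -0.40 in GRf/f and -0.43 in GRmKO mice, and the 399 longest (from 5757 bp) had 0.18 and 0.15. The Spearman correlation of length with the change was 0.49 in GRf/f and 0.45 in GRmKO mice over these 2392 genes, which share libraries and are not replicates. With GR loss, it was -0.14 in lean and 0.01 in *ob/ob* mice. When the median of the 200 other genes nearest in length was subtracted, all 10 fast fibre genes lay above 0 in both comparisons of obesity, with medians of 0.29 and 0.40. On this scale, *Myh2* was at 0.91 and 1.62, *Myh1* at 0.63 and 0.70, *Myh4* at 0.18 and 0.72, *Tnni2* at 0.36 and 0.39, and *Pvalb* at 0.02 and 0.11 in GRf/f and GRmKO mice. The part of transcript length in the changes of the fast fibre genes was not tested.

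**Figure D4:**
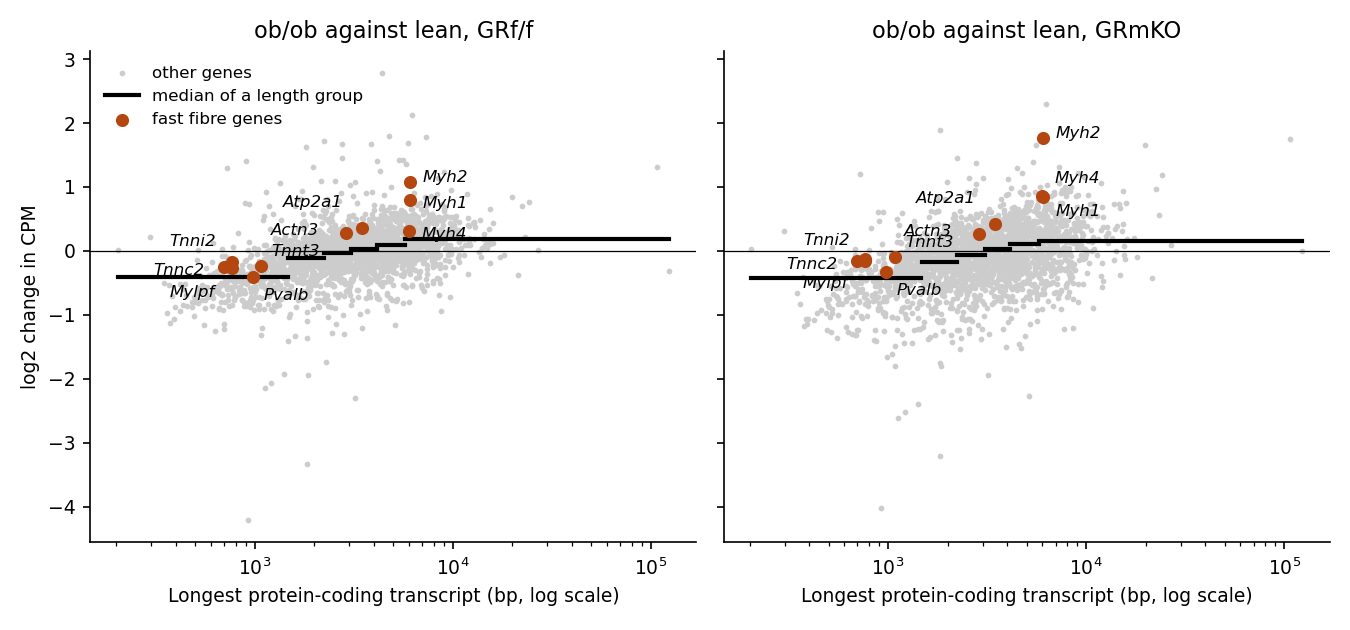
Log2 change in CPM with obesity against the length of the longest protein-coding transcript (bp, log axis) in GRf/f and GRmKO mice. Grey points are 2392 other genes at 50 CPM or more, black bars are the medians of 6 groups of length, which run from -0.40 to 0.18 in GRf/f mice, and orange points are the 10 fast fibre genes.

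The fast genes were set against another form of the same protein, here called slow, in 11 pairs. These cover the heavy and light chains, the troponins, SERCA, α-actinin, myosin-binding protein C, myozenin, and calsequestrin. A form called slow here need not be limited to slow fibres. In bulk muscle, more cells of a type cannot be told apart from more RNA per cell. All 11 slow forms were called higher with obesity in both genotypes, against 7.95% of all genes in GRf/f and 7.79% in GRmKO mice. *Myoz2* in GRmKO mice lay only just above the threshold of the call, with a log2 change of 0.585. The fast form held a median of 99.1% of the counts of a pair in lean GRf/f, 98.9% in lean GRmKO, 98.3% in ob/ob GRf/f, and 97.9% in ob/ob GRmKO muscle. The lowest fast shares were those of α-actinin (*Actn3* over *Actn3* and *Actn2*), at 90.8%, 88.9%, 85.6%, and 81.4%, and of myosin-binding protein C (*Mybpc2* over *Mybpc2* and *Mybpc1*), at 88.3%, 90.3%, 81.5%, and 87.1%. *Actn2* was also listed with the sarcomere genes shared by fast and slow fibres. The α-actinin share is therefore no measure of slow-fibre content. With obesity, the ratio of fast to slow was lower in 11 of 11 pairs in both genotypes, with log2 changes from -1.77 to -0.51 in GRf/f and from -1.76 to -0.45 in GRmKO mice. The fast share of SERCA was 99.6%, 99.4%, 99.5%, and 98.9%, with *Atp2a1* higher in *ob/ob* libraries, and that of troponin T was 99.9%, 99.8%, 99.5%, and 99.2%, with *Tnnt3* lower. With GR loss, the ratio was lower in 10 of 11 pairs in lean and in 9 of 11 in *ob/ob* mice, with medians of -0.30 and -0.24. The exceptions were myosin-binding protein C in both backgrounds and *Mylpf* against *Myl2* in *ob/ob* mice.

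**Figure D5:**
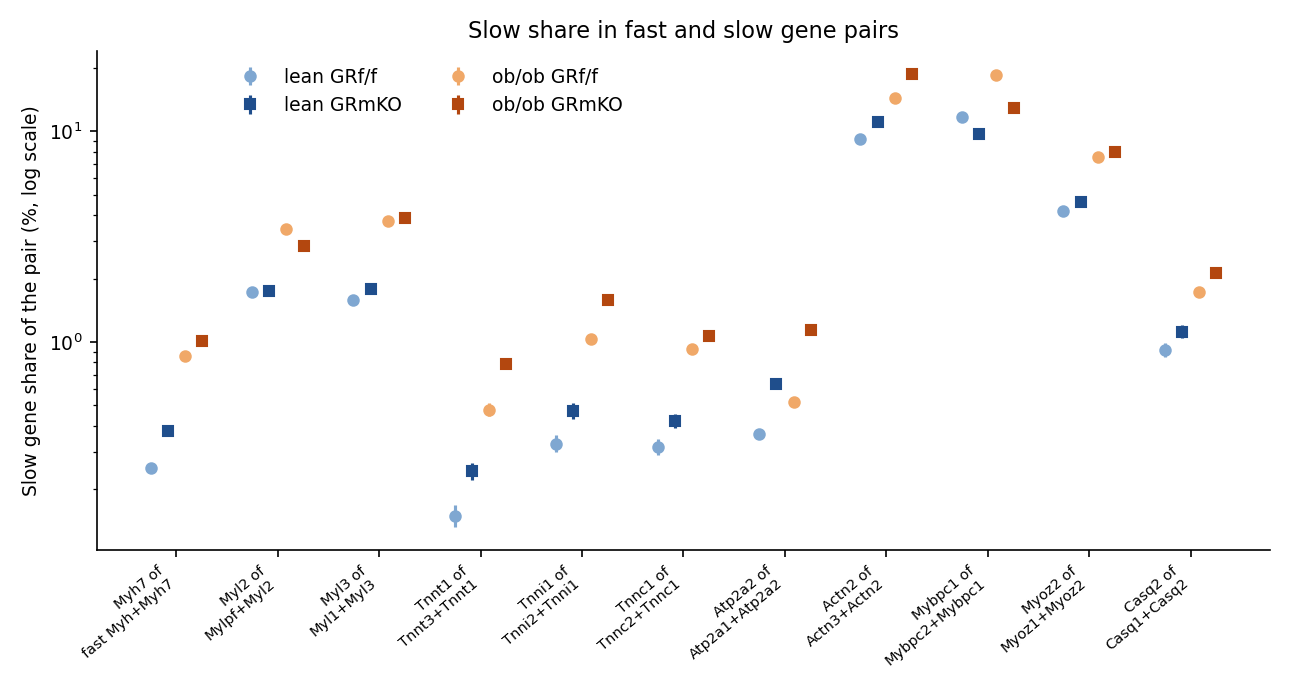
Share (%, log axis) of the slow form in the summed counts of each fast and slow pair, for 11 pairs in the 4 libraries. The fast form holds the rest of each pair, with a median over pairs of 99.1%, 98.9%, 98.3%, and 97.9% in lean GRf/f, lean GRmKO, ob/ob GRf/f, and ob/ob GRmKO muscle.

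Of 12 further sarcomere genes of fast fibres, 1 was called higher with obesity in GRf/f and 2 in GRmKO mice, and 0 were called lower, with medians of -0.02 and 0.04. Of all genes tested, 7.95% and 7.79% were called higher, and 16.6% and 24.0% lower. *Myom2*, an M-band protein, was the gene called in both genotypes, at 867 CPM in lean GRf/f, 916 in lean GRmKO, 1397 in ob/ob GRf/f, and 1689 in ob/ob GRmKO muscle. *Myoz3*, a Z-line protein, was the other gene called in GRmKO mice, with a log2 change of 0.81. *Myl1*, the essential light chain of fast myosin and the partner of *Mylpf*, was at 9045, 9810, 6167, and 6714 CPM in the same order of libraries, a log2 change with obesity of -0.55 in both genotypes. *Myl1* thus had the direction of *Mylpf*. With GR loss, 1 of the 12 genes was called lower in each background, *Mylk4*, a kinase of the myosin light chain kinase family. Of all genes, 7.78% were called lower with GR loss in lean and 12.2% in *ob/ob* mice, so this count is no more than the general rate. The *Mylk4* level was 1245 CPM in lean GRf/f, 735 in lean GRmKO, 1058 in ob/ob GRf/f, and 686 in ob/ob GRmKO muscle, so that both GRmKO libraries were below both GRf/f ones.

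Of 15 sarcomere genes shared by fast and slow fibres, 7 were called higher with obesity in each genotype and 0 lower, with medians of 0.51 and 0.50. The shares of all genes called higher were 7.95% in GRf/f and 7.79% in GRmKO mice, and 16.6% and 24.0% were called lower. *Ttn*, the giant spring of the sarcomere, was at 1470, 1474, 3644, and 4979 CPM in lean GRf/f, lean GRmKO, ob/ob GRf/f, and ob/ob GRmKO muscle. Of 16 genes of calcium handling around *Atp2a1* and *Pvalb*, 5 were called higher and 1 lower in GRf/f mice, and 5 higher and 2 lower in GRmKO mice, against the same shares of all genes. *Ryr1*, the release channel of the sarcoplasmic reticulum, had log2 changes of 0.66 and 0.93, and *Mrln*, which encodes the SERCA inhibitor myoregulin, had log2 changes of -1.23 and -1.11. *Mrln* was at 34.6, 23.3, 14.7, and 10.8 CPM, the lowest value being that of the ob/ob GRmKO library.

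Of 14 genes that regulate the fast programme, 2 were called higher and 1 lower with obesity in GRf/f mice, and 3 higher and 1 lower in GRmKO mice. Of all genes tested, 7.95% were called higher and 16.6% lower in GRf/f mice, and 7.79% and 24.0% in GRmKO mice. *Mafa*, a large Maf factor, was at 70.5 CPM in lean GRf/f, 89.1 in lean GRmKO, 132 in ob/ob GRf/f, and 173 in ob/ob GRmKO muscle. Both *ob/ob* libraries were above both lean ones in *Mafa*, with log2 changes of 0.90 in GRf/f and 0.95 in GRmKO mice. *Myod1*, a myogenic factor enriched in fast fibres, was at 30.7 and 47.2 CPM in lean GRf/f and GRmKO muscle and at 20.8 and 39.6 CPM in ob/ob GRf/f and GRmKO muscle, higher in each GRmKO library. Of 14 genes that regulate the slow programme, 1 was called higher with obesity in GRf/f and 3 in GRmKO mice, and 0 were called lower, against the same shares of all genes.

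Genes whose profile over the 4 libraries was closest to that of each myosin were sought among 1151 genes at a mean of 100 CPM or more, by the distance between centred log2 values. For *Myh1*, the nearest were *Rapgef1* (distance, 0.04), *Myo18b* (0.10), and *Ryr1* (0.11). For *Myh4*, they were *Coq8a* (0.07), *Cacna2d1* (0.11), and *Hif1an* (0.13). For *Myh2*, they included *Ttn* (0.31) and *Flnc* (0.40), which lay farther away than the genes named for the other 2 myosins. With 4 points per profile, these distances are a description.

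Markers of other cells differed between the same libraries. For the counts below, 7.95% of all genes were called higher with obesity in GRf/f and 7.79% in GRmKO mice, and 16.6% and 24.0% lower. The summed level of 7 erythroid markers was 2234 and 2131 CPM in the lean and 972 and 873 CPM in the *ob/ob* libraries, GRf/f first in each case, and 7 of 7 were called lower with obesity in both genotypes. That of 9 adipocyte markers was 1082 and 699 CPM in the lean and 635 and 399 CPM in the *ob/ob* libraries. With obesity, 4 of the 9 were called lower and 1 higher in GRf/f mice, and 3 lower and 2 higher in GRmKO mice. *Cfd* was at 268 CPM in lean and 14.4 in ob/ob GRf/f muscle, whereas *Adipoq* was at 81.6 and 80.5. *Lep* was 4.91-fold higher with obesity in GRf/f and 7.15-fold in GRmKO mice. With GR loss in lean mice, 8 of 9 were called lower, against 7.78% of all genes. That of 7 macrophage markers lay between 118 and 319 CPM, with both *ob/ob* libraries below both lean ones, and 3 were called lower with obesity in GRf/f and 7 in GRmKO mice. The sum of 7 endothelial markers was 549, 662, 434, and 393 CPM in lean GRf/f, lean GRmKO, ob/ob GRf/f, and ob/ob GRmKO muscle. That of 7 fibroblast markers was highest in the ob/ob GRf/f library, at 10535 CPM against 5460 to 5894 in the other 3. Collagen genes carried this sum, with *Col1a1* at 1282 CPM in lean and 4113 in ob/ob GRf/f muscle. The markers did not move together: 2 of the 7 were called higher and 1 lower with obesity in GRf/f mice, with a median log2 change of 0.08. *Dcn*, *Lum*, and *Dpt* were lower there (-0.50, -0.30, and -0.63). Liver markers summed to at most 26.6 CPM. The part of other cells in the changes of the fast fibre genes was not tested.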

How the data were processed

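Gastrocnemius RNA of 4 groups was sequenced, with 1 library per group. Per the labels and the study's methods, the authors quantified protein-coding mm10 transcripts with Salmon 1.2.1, obtained gene values by tximport (lengthScaledTPM) in R 3.5.0, and deposited expected counts, not normalized between libraries. Strand handling is not given in the sources used here.

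CPM was computed over the 14206 genes that had a count above 0 in every library. A floor of 3 counts corresponds to between 0.143 and 0.151 CPM. *ob/ob* was compared with lean mice within genotype, and GRmKO with GRf/f mice within background. With 1 library per group, no test was made, and a change of at least 1.5-fold was called. The computation of these calls was checked on simulated counts with counting error only, which is no test of the calls against the spread between mice. Named genes were the 10 members, *Nr3c1*, the slow partner of each pair, and, per list, up to 4 genes with the largest changes at a mean of 5 CPM or more, and the 3 genes nearest in profile to each myosin. Some genes that met this rule are not reported here. The members and lists were chosen with earlier results of these data known. Wilson intervals (95%) used rounded counts. Alternatives were TMM factors (edgeR 4.0.16) and DESeq2 1.42.0 size factors on rounded counts in R 4.3.3, upper quartile scaling, library sizes without the 50 most abundant genes or without the members, 2 other filters (at least 10 counts in every library, and none), a 2-fold call, shares per length or with *Myh7*, and, added after the data were seen, centring on genes of like length. Lengths and coordinates are from GENCODE on GRCm38. Python 3.11.15 with pandas 2.3.3, scipy 1.17.1, and matplotlib 3.10.9 was used.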

Additional observations from a re-analysis of the deposited data

Results flagged for a closer look

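Some values had opposite directions in 2 groups under the same contrast. With 1 library per group, each sign rests on a single pair of libraries, and none of these differences was tested. With loss of muscle GR, *Myh2* was lower in the lean and higher in the *ob/ob* background, and the log2 changes differed by 0.68 (*ob/ob* minus lean). *Myh4* had the same pattern, with a difference of 0.55, and *Tnnt3* had one of 0.14. The median of the 10 fast fibre genes also went from below to above 0, a difference of 0.18. The ratio of *Mylpf* to *Myl2* differed by 0.28 between the backgrounds, with -0.01 in lean and 0.27 in obese mice. The *Myh1* share of the 3 myosins was higher with GR loss in the lean and lower in the *ob/ob* background, a difference of -1.38 percentage points. The same libraries give a difference of -1.38 points when the change of the *Myh1* share with obesity in GRf/f mice is subtracted from that in GRmKO mice.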

How the results depend on the processing

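With 1 library per group, no library could be left out and no spread between mice was measured. No paired analysis was possible because each group has 1 library. Of the values that answer a comparison, 61 under an alternative stayed within the counting interval or within 1.5 times the count, and 35 moved beyond it. A reversal was counted only where the change was at least 1.5-fold in size, which no median was. Counts and shares had no such rule. No reversal could therefore be counted, and changes of sign in single genes are given below. The median log2 change of the 10 genes with obesity in GRf/f mice was 0.16 with TMM, 0.17 with DESeq2's factors, 0.13 with upper quartile scaling, 0.086 without the 50 most abundant genes, 0.064 without the members in the library size, and 0.29 after centring on genes of like length. In GRmKO mice it was 0.29, 0.30, 0.22, 0.16, 0.12, and 0.40 in that order. With GR loss in lean mice, the median was -0.13 with TMM, -0.12 with DESeq2's factors, -0.093 with upper quartile scaling, and -0.10 after length centring. In *ob/ob* mice it was 0.15, 0.16, and 0.15 with these 3 scalings, 0.15 without the 50 most abundant genes, and 0.13 without the members. TMM raised all genes by 0.11 in the GRf/f and by 0.21 in the GRmKO comparison of obesity. There, *Mylpf*, *Tnnt3*, *Tnni2*, and *Tnnc2* turned higher in GRmKO mice under TMM and DESeq2's factors (*Mylpf* and *Tnnt3* under upper quartile scaling), and *Atp2a1* was also called, for 4 genes in all. With GR loss, *Tnnc2* turned lower in lean mice under TMM, DESeq2's factors, and length centring, and *Atp2a1* turned higher in *ob/ob* mice under 4 scalings. A 2-fold call left 1 gene, *Myh2*, in each comparison of obesity, where 3.39% (GRf/f) and 3.41% (GRmKO) of all genes were called higher. With *Myh7* in the sum, the *Myh4* share was 93.5%, 93.6%, 89.9%, and 91.3%, and the *Myh2* share in ob/ob GRmKO muscle 4.15%. Per length, *Myh4* was at 90.8% in ob/ob GRf/f and 92.3% in ob/ob GRmKO muscle, *Myh2* at 4.15% in the latter, and the median fast share of the pairs at 99.3%, 99.2%, 98.7%, and 98.5%.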
